A study of Rattus norvegicus with 6 samples.

Results

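The genes described here encode pre-mRNA splicing factors, measured in whole kidneys of adult male rats. They were taken from the array annotation as every probe set with exactly 1 gene symbol that begins with Srsf, Hnrnp, Prpf, Sf3a, Sf3b or Snrp, or that is Tra2a, Tra2b, U2af1 or U2af2. This gave 102 probe sets of 62 genes, out of 31042 probe sets and 14217 singly named genes on the array. For each gene the probe set with the highest mean signal over the 6 arrays was taken as the main one, and 22 genes had at least 1 further probe set. Srsf7-ps4 is named as a pseudogene.

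Kidney RNA came from 3 inbred Dahl salt-sensitive rats (SS/Jr, called S) and from 3 rats of the congenic strain S.LEW(D1MCO4x1x3Bx1). The S strain develops high blood pressure on a salt-rich diet. The congenic strain shares the S background and carries a stretch of chromosome 1 from the Lewis strain, and the series title speaks of Adamts16 variants and inherited hypertension. Each array bears the number of its own animal and was counted as 1 rat. Diet and exact age were not among the labels, and only 1 congenic strain was measured. Of the 62 genes, 10 lie on chromosome 1 in the gene table used for names, and the nearest to Adamts16, Sf3b5, lies 144 protein-coding genes from it.

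Splicing removes introns from nuclear transcripts in a large complex, the spliceosome, which is built from small nuclear RNAs and their proteins. SR proteins, rich in arginine and serine, generally bind exons and promote the use of nearby splice sites, whereas many hnRNP proteins bind introns or exons and can repress it. U2AF and SF3 proteins recognise the 3' splice site and the branch point, Snrp genes encode proteins of the small nuclear ribonucleoproteins, and Prpf proteins act mostly in the assembly and activation of the complex. Many of these genes make alternative transcripts of their own that are degraded or keep an intron, so probe sets at different places in a gene need not read the same RNAs.

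The values are probe set signals on a linear scale. Their order of brightness depends on the probes as well as on the RNA, so brightness was not compared between genes. A main probe set was tested if its log2 signal, averaged over arrays, exceeded the array's median, a signal of 165, and 58 of the 62 genes passed this filter. The genes whose main probe set lay under it were Srsf3, Srsf7, Srsf7-ps4 and Snrpn, an imprinted gene of the Sm family. Of all 102 probe sets, 89 passed and 13 did not. Median signals of the 6 arrays ran from 163 to 178, and rank correlations between arrays over probe sets, which are not independent replicates, from 0.946 to 0.961. The ratio of 3' over 5' control signals for beta-actin ran from 1.99 to 2.30 in S and from 1.94 to 2.06 in congenic kidneys, and that of GAPDH from 1.11 to 1.18 and from 1.12 to 1.20. That of hexokinase was more widely spread, from 1.83 to 2.74 in S and from 2.09 to 2.78 in congenic kidneys. All 6 proximal tubule, 5 loop of Henle and distal tubule, 5 collecting duct and 4 podocyte markers found on the array passed the filter, while all 3 liver and all 3 skeletal muscle markers lay under it. Summed signals of the 3 erythrocyte markers ran from 17153 to 23735 in S and from 12036 to 18426 in congenic kidneys, and those of the 5 immune cell markers from 15377 to 16836 and from 16514 to 18717. Those of the 7 endothelium and smooth muscle markers ran from 8176 to 8612 in S and from 7902 to 8066 in congenic kidneys. These ranges did not overlap. Within that list 4 of the 7 had a log2 difference above 0, and each cell type was mixed. The endothelial genes Vwf, Pecam1, Kdr and Emcn had 0.63, 0.15, 0.002 and -0.13. The smooth muscle genes Acta2, Myh11 and Tagln had -0.36, -0.21 and 0.025. The part of these markers in the values below was not tested. In a whole kidney, fewer cells of a type and less RNA per cell cannot be told apart.

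Promoters of most splicing factor genes were rich in CpG dinucleotides, a trait that played no part in choosing them. RefSeq windows on GRCr8, from 250 bases before to 50 bases after a start site, were found for 57 of the 62 genes in 61 windows. The genes with no entry were U2af2, Srsf7-ps4, Hnrnpll, Sf3b2 and Tra2a. The median window held 24 CpG dinucleotides, against 7 over all 33469 windows, and 95.1% held at least 10, against 41.5%. Counts in the windows of the splicing factor genes ran from 0 to 54. All 33469 windows include genes not expressed in kidney. A comparison with other genes above the signal filter was not made, so the trait cannot be called particular to splicing factors. Searched on both strands, the GC box GGGCGG was found in 59.0% of the windows against 33.1% of all, the box CCAAT in 55.7% against 37.5%, and the ETS motif CCGGAAG in 31.1% against 8.75%. The box TATAAA was found in 11.5% against 14.2%. These matches are letters in a window, and the motifs can overlap. The 150 bases before the start are shown for 3 genes whose strains did not overlap, 2 with lower and 1 with higher congenic signals, with matches to any of these motifs in capitals.
Hnrnpa2b1 (chr4:81875887-81876036, minus strand, GRCr8): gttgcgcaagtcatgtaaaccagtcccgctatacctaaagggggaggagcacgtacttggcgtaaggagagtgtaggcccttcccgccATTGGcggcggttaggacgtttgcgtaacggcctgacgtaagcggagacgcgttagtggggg
Prpf4b (chr17:30224921-30225070, minus strand, GRCr8): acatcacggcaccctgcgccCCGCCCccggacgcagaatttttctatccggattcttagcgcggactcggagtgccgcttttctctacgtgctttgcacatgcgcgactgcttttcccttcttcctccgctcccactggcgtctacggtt
Sf3b6 (chr6:33545345-33545494, plus strand, GRCr8): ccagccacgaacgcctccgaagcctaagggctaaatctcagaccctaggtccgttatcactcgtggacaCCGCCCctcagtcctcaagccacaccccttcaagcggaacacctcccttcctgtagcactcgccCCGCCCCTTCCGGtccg
The Hnrnpa2b1 stretch held 1 CCAAT match, read on the other strand, and 14 CpG dinucleotides. That of Prpf4b held 1 GC box and 16 CpG, and that of Sf3b6 held 2 GC boxes, the second of them directly followed by an ETS match, and 11 CpG.

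The first comparison asked whether the 2 strains differed in the expression of splicing factor genes. None of the 58 tested genes passed limma's adjusted threshold of 0.05 by its main probe set, where the background was 0.00% of 15521 probe sets, and the smallest adjusted p among them was 0.282. At unadjusted p under 0.05 there were 10 of 58, or 17.2%, against 10.4% of the 9334 main probe sets of all named genes and 10.3% of all probe sets tested. Of these, only Sf3b6 was higher and 9 were lower in congenic kidneys, where the shares over all named genes were 5.55% higher and 4.84% lower. In 10 genes, also 17.2%, no congenic rat fell within the S range and all 3 stood on 1 side of it, against 17.0% of main probe sets of all named genes and 15.97% of all probe sets tested. Of those 10, 3 were higher and 7 lower, where the shares over all named genes were 9.59% higher and 7.45% lower. The share of genes whose strains did not overlap was thus near that of the array.

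Differences were small. The 58 log2 differences, congenic minus S and given with their standard error (SE) where named, ran from -0.54 to 0.30, and 49 of them were smaller than 0.25 in size. Below 0 were 37, a share of 63.8%, against 47.6% of main probe sets of all named genes, and the median was -0.05, against 0.01. With each array centred on its median in place of the deposited scaling, 26 of the 58 (44.8%) were below 0 and their median was 0.02, while the share over all probe sets tested went from 51.8% to 37.4%. The median standard error of these differences was 0.11, and 0.14 over all probe sets tested.

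**Figure D1:**
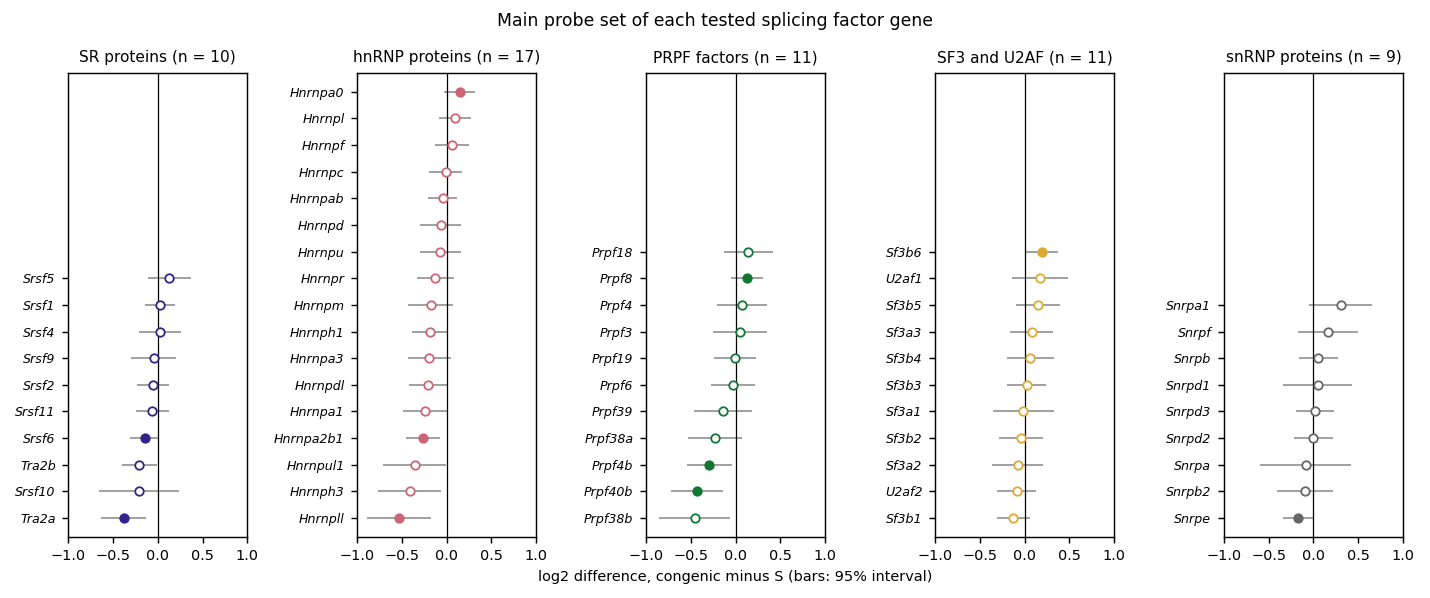
Log2 difference (congenic minus S, horizontal axis) of the main probe set of each of the 58 tested genes, in 5 classes, with 95% intervals from limma; filled points mark the 10 genes whose strains did not overlap. The values run from -0.54 for Hnrnpll to 0.30 for Snrpa1, and in the hnRNP class 14 of 17 points lie left of 0.

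The hnRNP genes, whose proteins package nuclear transcripts and bind regulatory sites in them, were the class with the lowest median. Of 17 tested genes 14 had a log2 difference below 0, and the class median was -0.18. Counting every probe set of the class, with an Hnrnpdl probe set under the filter, 25 of 31 were below 0. Over all probe sets tested this share was 51.8%. Probe sets of a gene were read on the same arrays, so the 31 are not independent. At unadjusted p under 0.05 were 4 genes, all with lower congenic signals, namely Hnrnpa2b1, Hnrnph3, Hnrnpll and Hnrnpul1, and none passed the adjusted threshold. Among main probe sets of all named genes 10.4% were at this unadjusted p, 4.84% with lower congenic signals. The arrays were not equally spread. The median log2 deviation of the 17 genes from their own 6-array means was 0.13 and 0.12 in S replicates 2 and 3, but -0.03 in S replicate 1, inside the range of -0.07 to -0.01 of the congenic rats. Between arrays whose titles begin with a number below 10 (S replicate 1, congenic replicates 1 and 2), 10 of 17 genes were below 0 and the median was -0.01. Between those above 10 (S replicates 2 and 3, congenic replicate 3), 14 were and the median was -0.19. With arrays centred on the median, 11 of 17 were below 0, while the share over all probe sets tested went from 51.8% to 37.4%. In a fit that also held the title number, below or above 10, as a block, 14 of 17 were below 0 and the median was -0.14.

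**Figure D2:**
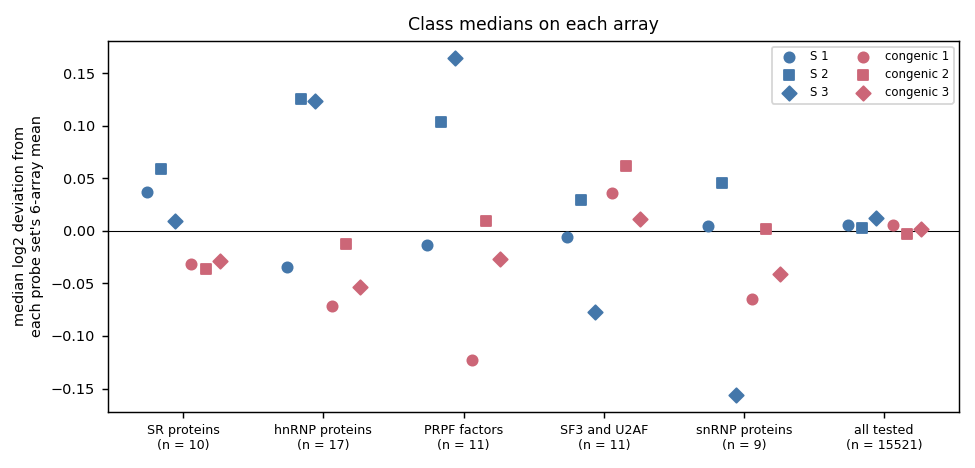
Median log2 deviation (vertical axis) of the tested main probe sets of each class on each of the 6 arrays, taken from each probe set's own mean over the arrays; blue marks S and red congenic rats. S replicates 2 and 3 stand above the others for the hnRNP class (0.13 and 0.12) and the PRPF class (0.10 and 0.16), and for the SR class all 3 S rats (0.01 to 0.06) lie above the congenic rats (-0.04 to -0.03).

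Hnrnpa2b1 encodes an abundant hnRNP that also binds RNAs bound for transport, and its promoter stretch is printed above. Its main probe set read 4162, 5170 and 4775 in S and 3965, 3981 and 3737 in congenic kidneys. All congenic rats lay below all S rats, with the gap to S replicate 1 the narrowest. The means were 4702 ± 508 and 3894 ± 136 (SD, n = 3 each), a log2 difference of -0.27 (SE 0.09; limma unadjusted p = 0.00911, adjusted p = 0.312). Within the arrays of title number below 10 it was -0.07, and within those above 10 it was -0.41.

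Hnrnpll, a regulator of CD45 splicing in lymphocytes, had the lowest main log2 difference of all, -0.54 (SE 0.17; limma adjusted p = 0.291). It read 533, 663 and 557 in S and 510, 376 and 336 in congenic kidneys. The strains did not overlap, and congenic replicate 1 lay close to the lowest S rat. Hnrnph3, a relative of the G-run binding hnRNP H, read 498, 705 and 730 in S and 478, 551 and 410 in congenic kidneys, and its strains overlapped. Within the arrays of title number below 10 the Hnrnph3 difference was 0.04, and within those above 10 it was -0.81, so its direction rests on the latter. For Hnrnpll these values were -0.28 and -0.85. Hnrnpul1, which binds RNA and takes part in the response to DNA damage, had a log2 difference of -0.36 (SE 0.16), with -0.39 and -0.42 within these arrays, and its strains overlapped too.

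Hnrnpa3, a relative of hnRNP A1, read 6263, 7980 and 7839 in S and 5528, 7514 and 6298 in congenic kidneys. On this probe set S replicate 1 fell within the congenic range, and the log2 difference was -0.19 (SE 0.11). Hnrnpu, a nuclear scaffold protein, had a main log2 difference of -0.07. The sign of that value turned to 0.04 without S replicate 3 and to 0.02 without congenic replicate 3. Hnrnpa1, a classic antagonist of SR proteins, had -0.24. Hnrnpa0 went the other way, with 3403, 3220 and 3427 in S and 3922, 3645 and 3534 in congenic kidneys, or 0.14 (SE 0.08). All 3 congenic rats lay above the S rats on Hnrnpa0. Hnrnpl and Hnrnpf were the other two above 0, at 0.09 and 0.06.

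**Figure D3:**
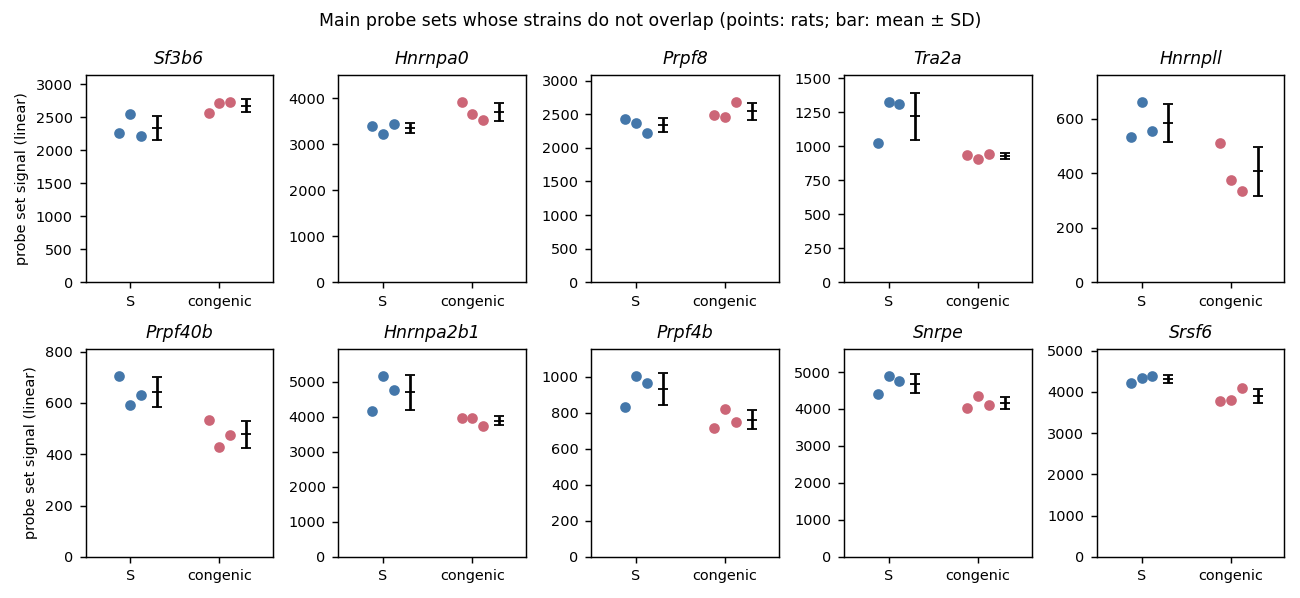
Linear signal of the main probe set in each rat (points; blue S, red congenic) with mean ± SD (bars, n = 3), for the 10 genes whose strains did not overlap; each vertical axis starts at 0. Sf3b6, Hnrnpa0 and Prpf8 lie higher and the other 7 lower in congenic kidneys, and none passed the adjusted threshold.

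SR and SR-like proteins carry RNA recognition motifs beside their arginine-serine region. Of 10 tested genes 7 were below 0, with a class median of -0.06, and 2 did not overlap between the strains, both lower. Among main probe sets of all named genes 17.0% did not overlap, 7.45% with lower congenic signals. Tra2a, which binds GAA-rich exonic enhancers, read 1022, 1329 and 1310 in S and 935, 907 and 947 in congenic kidneys. The congenic rats lay close together and below each S rat. The means were 1220 ± 172 and 930 ± 20.8, a log2 difference of -0.38 (SE 0.12; limma unadjusted p = 0.00507, adjusted p = 0.282), and from -0.51 to -0.32 with 1 array left out, largest in size without S replicate 1. Within the arrays of title number below 10 it was -0.15, and within those above 10 it was -0.48. Tra2b, its paralog, had -0.21 (SE 0.09; unadjusted p = 0.0400, adjusted p = 0.462 in limma) and overlapped, with -0.13 and -0.37 within these arrays. Both differences were smaller in size on the further probe set of the gene. Tra2a had -0.14 (SE 0.17) on 1392758_at, with overlap. Tra2b had -0.04 (SE 0.08) on 1370188_at, a probe set of similar brightness on which the strains did not overlap. Srsf6 read 4215, 4345 and 4389 in S and 3782, 3809 and 4093 in congenic kidneys, so that its strains did not overlap, at a log2 difference of -0.15.

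Srsf2, which binds both purine-rich and pyrimidine-rich exonic sites, read 4912, 4885 and 4863 in S and 4525, 4371 and 5277 in congenic kidneys. Congenic replicate 3 lay above and the other congenic rats below all S rats. Its log2 difference of -0.05 turned to 0.02 with arrays centred on the median. Srsf1, the founding member of the family, stood at 0.03, Srsf5 at 0.13, Srsf4 at 0.02, Srsf9 at -0.05 and Srsf11 at -0.06. For the 3 genes under the filter, Srsf3, Srsf7 and Srsf7-ps4, the fit over all probe sets gave -0.40, 0.06 and -0.54 with standard errors of 0.80, 0.40 and 0.34. Differences of the size found in the other SR genes were not detectable at this precision.

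PRPF factors are named after yeast mutants that fail in pre-mRNA processing. Of 11 tested genes 7 were below 0 with a median of -0.03, and at unadjusted p under 0.05 were Prpf40b, Prpf4b and Prpf38b, all with lower congenic signals. The share at this p among main probe sets of all named genes was 10.4%, with 4.84% lower. Prpf40b, a relative of a yeast U1 protein that bridges splice sites, read 706, 594 and 630 in S and 532, 427 and 475 in congenic kidneys. Its strains did not overlap, and the log2 difference was -0.43 (SE 0.14; limma unadjusted p = 0.00711, adjusted p = 0.295). It was -0.57 within arrays of title number below 10 and -0.36 within those above.

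The main probe set of Prpf4b, a kinase of the spliceosome, read 832, 1003 and 962 in S and 715, 818 and 746 in congenic kidneys. The congenic rats lay below the S rats, at a log2 difference of -0.29 (SE 0.12; limma adjusted p = 0.408), with -0.12 within arrays of title number below 10 and -0.40 within those above. Prpf38b, a factor of spliceosome activation by its yeast relative, had -0.46, but S replicate 1 (494) lay below congenic replicate 2 (565), and it had -0.17 and -0.69 within these arrays. Prpf8, the protein at the catalytic centre of the spliceosome, was a gene with higher congenic values. It read 2422, 2362 and 2225 in S and 2492, 2451 and 2686 in congenic kidneys, without overlap, at 0.12 (SE 0.08). Prpf3, Prpf4 and Prpf6, all of the tri-snRNP, had 0.05, 0.07 and -0.03, and Prpf19, a ubiquitin ligase, had -0.01.

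SF3 and U2AF proteins recognise the branch point and the 3' end of the intron. Of 11 tested genes 6 were above 0, and the class median of 0.03 was the highest of the 5 classes. Sf3b6, the SF3B subunit that touches the branch point adenosine, read 2259, 2548 and 2212 in S and 2561, 2719 and 2733 in congenic kidneys. The strains came close at S replicate 2 and congenic replicate 1 and did not overlap, at a log2 difference of 0.19 (SE 0.09; unadjusted p = 0.0421, adjusted p = 0.470 in limma). Sf3b1, the largest SF3B subunit, had -0.12 with overlap. The remaining SF3 genes ran from -0.08 for Sf3a2 to 0.15 for Sf3b5. U2af1, which contacts the AG at the 3' splice site, had 0.17 (SE 0.15), and U2af2, which binds the pyrimidine tract, had -0.09.

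Snrp genes split evenly about 0, with 5 of 9 tested above it and a median of 0.02. Snrpe, an Sm core protein, read 4401, 4894 and 4749 in S and 4028, 4356 and 4109 in congenic kidneys. Each congenic rat lay below each S rat, at a log2 difference of -0.17 (SE 0.08; limma unadjusted p = 0.0505, adjusted p = 0.485). The other tested Sm core genes Snrpb, Snrpd1, Snrpd2, Snrpd3 and Snrpf had 0.06, 0.05, -0.00, 0.02 and 0.16, and each overlapped. Snrpa1 of the U2 particle had the highest difference of the 58, 0.30 (SE 0.17). It overlapped, since congenic replicate 2 (398) lay below S replicate 2 (423). Snrpb2, its partner, had -0.10, and Snrpa of the U1 particle -0.09.

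The second comparison asked whether weak and strong probe sets of the same gene gave the same difference between strains. The 22 genes with several probe sets gave 40 pairs of the main with a further probe set, and the main one was brighter by a median of 3.17 times. The 2 log2 differences had the same sign in 29 of the 40 pairs, or 72.5% (95% exact binomial interval 56.1 to 85.4, for counting error only), against 53.8% of 6569 pairs of all other named genes. Probe sets of a gene were read on the same 6 arrays and up to 4 pairs share a main probe set, so the signs are not independent. The share depended on which rats were included. It was 55.0% without congenic replicate 1, 57.5% without S replicate 3 and 82.5% without S replicate 1. Without S replicate 2 or congenic replicate 2 or 3 it lay between 65.0% and 67.5%. That of other genes stayed between 52.8% and 54.7% with any 1 array left out. In a fit that also held the title number, below or above 10, as a block, the share was 60.0%. It was 65.0% with arrays centred on the median and 70.0% with quantile normalisation, against 54.1% and 52.4% in other genes. Of the 89 tested splicing factor probe sets 60 were below 0, against 51.8% of all probe sets tested. The part of this lean in the share of equal signs was not tested.

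Across the 40 pairs, as a description, the Pearson correlation of the 2 log2 differences was 0.43 and Spearman's 0.45, against 0.06 and 0.08 for the other genes. For the 31 pairs whose further probe set also lay above the filter, 23 agreed in sign, and for the 9 whose further probe set lay under it, 6 did. In all other genes these shares were 56.1% and 51.8%. The Pearson and Spearman correlations of the 31 pairs were 0.33 and 0.30, against 0.20 and 0.20 in other genes above the filter. Those of the 9 pairs were 0.54 and 0.46, against 0.04 and 0.03. The further probe set lay under the filter in 9 of the 40 pairs, but in 3513 of the 6569 pairs of other genes. The correlations over all pairs thus compare unlike mixes of signal. The median standard error of the difference between 2 probe sets was 0.16 in the first group and 0.46 in the second, so that weak probe sets gave a coarse reading.

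Agreement was then tested directly, as the difference between the strain effects of the main and the further probe set. None of the 40 pairs passed the adjusted threshold in limma, where the background was 0.00% of the 6609 pairs on the array, and the smallest adjusted p was 0.449. At unadjusted p under 0.05 there were 4 pairs, or 10%, against 7.40% of all pairs. These were a pair each of Prpf4b, Hnrnpa2b1, Hnrnpa1 and Hnrnpu, and in all 4 the further probe set was itself above the filter. The median size of the difference between probe sets was 0.19 on the log2 scale. A p above the threshold does not show that the probe sets agreed. Single further probe sets are described below. Among all 89 tested splicing factor probe sets, main and further, 17 did not overlap between strains. This was 19.1%, near the 15.97% of all probe sets tested.

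**Figure D4:**
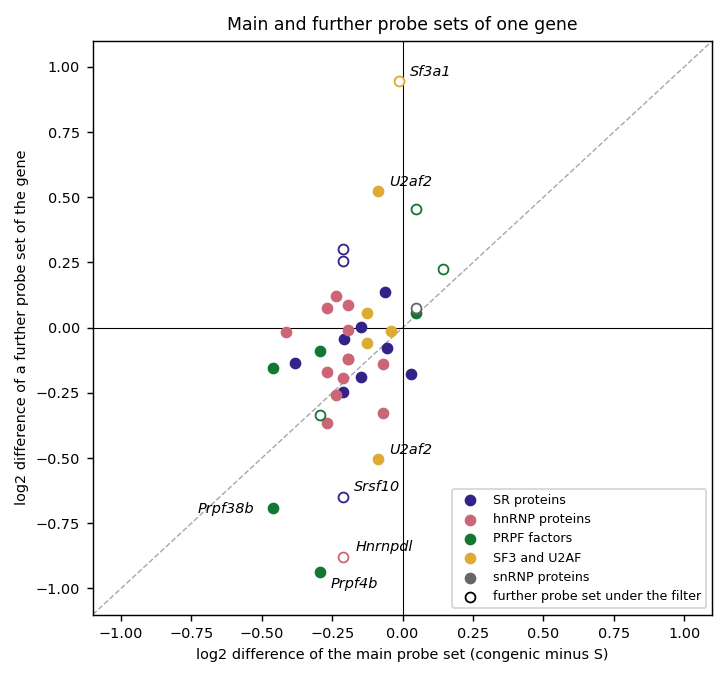
Log2 difference (congenic minus S) of the main probe set (horizontal) and of each further probe set of the same gene (vertical) for 40 pairs of 22 genes; open circles are further probe sets under the signal filter and the dashed line marks equal values. Of the 40 points 29 lie where both differences have 1 sign, and the probe sets farthest from the line include those of Sf3a1, Prpf4b, Hnrnpdl and U2af2.

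Prpf4b was the widest case by p value. Its further probe set 1397203_at read 765, 583 and 646 in S and 302, 357 and 382 in congenic kidneys. The lowest S rat was well above the highest congenic rat. The means of 664 ± 92.8 and 347 ± 41.0 gave a log2 difference of -0.94 (SE 0.15). This was the smallest p among the 102 probe sets (limma adjusted p = 0.0697), and over the alternatives the adjusted p ran from 0.0435, with arrays centred on the median, to 0.447, without the variance trend. The difference was -1.22 within arrays of title number below 10 and -0.69 within those above. The 3 other probe sets had -0.29, -0.09 and -0.34, so all 4 lay below 0, but the strain effect of the main probe set was smaller by 0.64 (95% interval 0.24 to 1.04, limma unadjusted p = 0.00419). S replicate 1 was the highest S rat on 1397203_at and the lowest on each of the other 3.

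U2af2 had probe sets that went apart. The main one read 2664, 2139 and 2159 in S and 2111, 2081 and 2333 in congenic kidneys, with overlap. Probe set 1395282_at read 380, 433 and 302 in S and 278, 208 and 300.5 in congenic kidneys, all lower though narrowly, at a log2 difference of -0.51 (SE 0.20). Probe set 1395614_at read 150, 132 and 150 in S and 196, 223 and 201 in congenic kidneys, all higher, at 0.52 (SE 0.22). The main probe set differed from these by 0.42 and -0.61, at limma adjusted p of 0.692 and 0.668. The main value of -0.09 turned to 0.01 without S replicate 1.

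Among the hnRNP genes, Hnrnpa2b1 had probe sets in 4 signal ranges. Probe set 1373540_at read 1483, 1901 and 1915 in S and 1121, 1490 and 1513 in congenic kidneys, or -0.36, with S replicate 1 inside the congenic range. Probe set 1378543_at had -0.17. In contrast 1395561_at read 2263, 2627 and 2955 in S and 2539, 2737 and 2968 in congenic kidneys, at 0.08, and the strain effect of the main probe set was lower than that of 1395561_at by a log2 difference of -0.34 (95% interval -0.59 to -0.09, limma unadjusted p = 0.0110, adjusted p = 0.540).

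**Figure D5:**
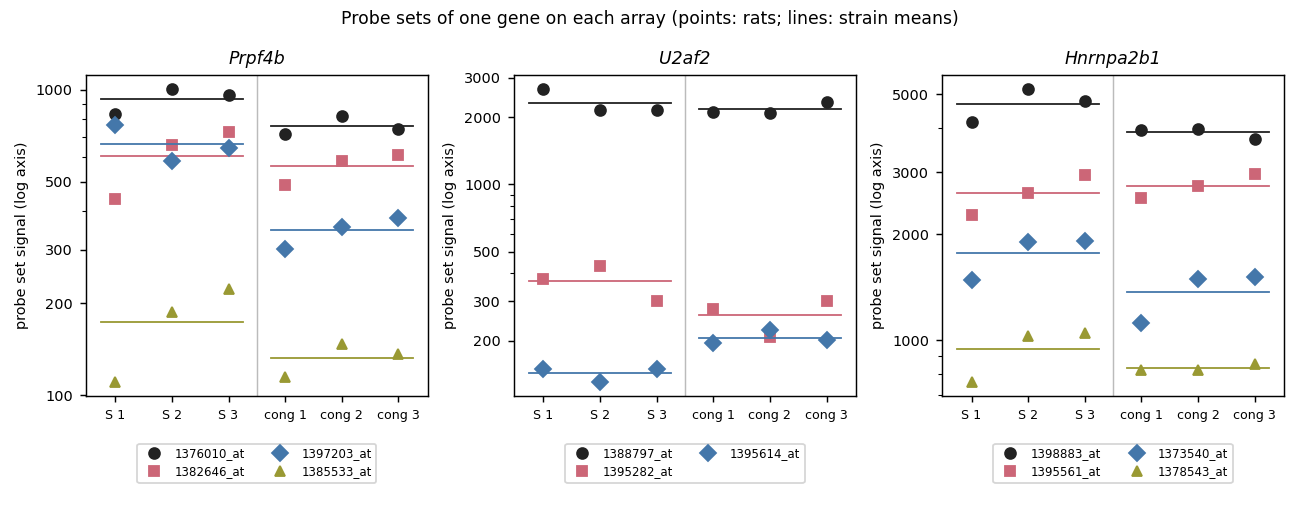
Signal (vertical, log axis) of every probe set of Prpf4b, U2af2 and Hnrnpa2b1 on each of the 6 arrays; each symbol is a probe set, each point a rat, and horizontal lines are the strain means. For Prpf4b the probe set 1397203_at has strain means of 664 and 347 while 1382646_at overlaps, and for U2af2 the probe sets 1395282_at and 1395614_at go in opposite directions.

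For Hnrnpa1 the main probe set had -0.24, 1375612_at had -0.26 and 1387872_at had 0.12. For Hnrnpu the second probe set, 1370171_at, read 2524, 2901 and 3012 in S and 2467, 2257 and 2010 in congenic kidneys. The congenic rats all lay below the S rats, at -0.33 (SE 0.10), against -0.07 on the main probe set. Hnrnph3 had -0.42 and -0.02 on probe sets of nearly equal brightness. Hnrnpa3, with 5 probe sets, had -0.19, -0.01, -0.12, -0.12 and 0.09 from the brightest to the dimmest, and no probe set separated the strains.

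Of the 22 genes, 12 had a single sign on every probe set, 9 lower and 3 higher in congenic kidneys. The 9 were Hnrnpdl, Hnrnph3, Hnrnpu, Prpf38b, Prpf4b, Sf3b2, Srsf2, Tra2a and Tra2b. Some of their values lay near 0, as with -0.04 and -0.01 for Sf3b2 and -0.05 and -0.08 for Srsf2. The 3 were Prpf18, Prpf3 and Snrpd1, whose differences ran from 0.05 to 0.45. Each of the 3 had a probe set under the filter, with standard errors of 0.44, 0.33 and 0.32. Prpf38b had -0.46, -0.69 and -0.16, and its middle probe set, 1385455_at, read 300, 314 and 274 in S and 234, 177 and 148 in congenic kidneys, without overlap. Hnrnpdl, a relative of hnRNP D, had -0.21, -0.19 and -0.88 from the brightest to the dimmest. The dimmest, under the filter, read 115, 113 and 200 in S and 72.8, 66.5 and 86.0 in congenic kidneys, all lower.

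The other 10 genes had mixed signs. Srsf10, a splicing repressor when dephosphorylated, had 5 probe sets at -0.21, -0.25, 0.26, 0.30 and -0.65, of which the last 3 lay under the filter and had standard errors of 0.26 to 0.42. All 5 overlapped between strains. Sf3a1 had -0.01 on its main probe set and 0.95 (SE 0.76) on the further one, where S replicate 1 read 22.7 against 110 to 167 on the other arrays. Srsf1 had 0.03 and -0.18, Srsf11 -0.06 and 0.14, and Srsf6 -0.15, 0.00 and -0.19.

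Other genes of the pathway, listed without regard to these prefixes, had 0 calls at limma's adjusted p of 0.05 in any list, with 6 at unadjusted p under 0.05 among 108 tested, or 5.56%, against 10.4% of main probe sets of all named genes. Of 53 tested spliceosome components 29 were above and 24 below 0, with a median of 0.02. Puf60, a partner of U2AF, had 0.43, Ctnnbl1 of the PRP19 complex 0.29 and Lsm5 of the U6 ring -0.34. In the exon junction and SR-related list 7 of 15 were above 0, with the scaffold gene Srrm2 at 0.31, Pnn at -0.43 and Rbm25 at -0.35. Of 31 tested regulators of alternative splicing 15 were above 0, and the 3 of smallest p were the cold-induced gene Rbm3 at -0.29, Taf15 at -0.55 and Ptbp1 at -0.12. Of 9 tested splicing kinases and phosphatases, among them the SRPK and CLK kinases that act on SR proteins, 5 were above 0 and none reached unadjusted p under 0.05, with Clk3 at 0.23, Srpk1 at -0.25 and Ppp1ca at 0.09.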

How the data were processed

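Kidney RNA of 6 rats was hybridised to Affymetrix 1-colour arrays. The authors deposited 1 linear intensity per probe set and array, made with GCOS 1.4 per the submitters' processing notes, and all arrays have the same trimmed mean. No detection calls were used here. After 57 control probe sets were left out, a floor was set at the 10th percentile of the table (12.3) before log2 was taken. Probe sets above the median mean log2 signal were fitted with limma 3.58.1 in R 4.3.3 (lmFit, eBayes with an intensity trend), as congenic minus S, with p-values adjusted by Benjamini-Hochberg over all 15521. Those under the filter took their values from a fit of all 31042 probe sets.

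For agreement within a gene, the per-array log2 difference between the main and each further probe set was fitted in the same way over 6609 pairs, with the trend on the further probe set's mean. Names come from the array annotation of the platform, and all 62 symbols matched the GRCr8 gene table by Entrez identifier. Probe sets with several symbols (8 of them with a splicing factor among these) were left out. The gene classes, lists and members were chosen with earlier results of these data known. Genes named are those whose strains did not overlap (up to 12 per direction, by p), the brightest and the smallest p of each class, genes with at least 4 probe sets, and the 8 pairs of smallest p. Others named in passing were chosen after their values were seen. The procedure was tested on simulated data. An exact permutation test with 3 against 3 cannot go below p = 0.1 and is not quoted. The number of arrays limits the precision. Alternatives covered the floor, filter, normalisation, variance trend, array weights, title number, choice of probe set and each array left out. Figures were drawn with matplotlib 3.10.9.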

Additional observations from a re-analysis of the deposited data

How the results depend on the processing

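The count of genes past the adjusted threshold and the count of pairs past it were 0 under every alternative run. Among all probe sets tested, 41 passed it without S replicate 1 and 9 with arrays centred on the median. These 9 included Prpf4b probe set 1397203_at, which is not a main probe set. Without congenic replicate 1 there were 6, without congenic replicate 3 there were 3, and under the other alternatives there were none. Of 90 values of the 6 list results under alternatives, 84 stayed within the bounds set for them, and the remaining 6 follow. The 10 genes whose strains did not overlap became 13 to 21 with 1 array left out, lowest without congenic replicate 3 and highest without S replicate 1, where the share over all probe sets tested was 25.5% and 30.5%. The median log2 difference of the members was 0.021 with arrays centred on the median, where that of all probe sets tested was 0.062. With 1 array left out the median of the members was -0.074 to -0.038. The share of further probe sets with the sign of the main one was 55.0% to 82.5% with 1 array left out, lowest without congenic replicate 1. The hnRNP count of 14 of 17 below 0, an alternative check added after the data were seen, was 11 with centred arrays and 13 or 14 with 1 array left out. Over all probe sets tested, the share below 0 was 51.8% in the main fit and 37.4% with centred arrays. Of 19 named log2 differences in 284 values under alternatives, 278 kept direction and side of the threshold. Signs turned for Srsf2 (0.017 with centred arrays) and with 1 array left out, where Hnrnpu ran from -0.144 without S replicate 1 or congenic replicate 2 to 0.037 without S replicate 3 and was 0.022 without congenic replicate 3, Srsf2 from -0.136 without congenic replicate 3 to 0.000 without congenic replicate 2, and U2af2 from -0.143 without S replicate 2 to 0.015 without S replicate 1, and Prpf4b probe set 1397203_at passed with centred arrays, at -0.87 (limma adjusted p = 0.0435). The cause of these changes was not tested. No paired analysis was possible because the strains share no replicate numbers in the labels. Signal over background could not be judged probe set by probe set without detection calls, which limits the 13 probe sets under the filter most.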
